A study of Mus musculus with 5 samples.

Results

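The BCL2 family decides at the mitochondrion whether a stressed cell lives or dies, and 10 of its genes were followed here in mouse liver after 2 related drugs: Bcl2l1, Mcl1, Bcl2l11, Bbc3, Bmf, Bik, Bid, Pmaip1, Bax and Bak1. They were chosen by name, as every non-control probe whose gene name in the array files was on that list. All 10 genes were found, with 21 probes, among 36866 gene names and 56597 probes on the array. Livers came from 6-week-old female BALB/c mice 6 hr after intraperitoneal dosing, and RNA of 6 livers was pooled for each group's single array. The groups without BSO (buthionine sulfoximine) were TGZ (troglitazone, 300 mg/kg), RGZ (rosiglitazone, 300 mg/kg) and Vehicle. Those with it were BSO+TGZ and BSO+RGZ, with BSO at 700 mg/kg and each drug at 300 mg/kg. The labels do not say when BSO was given relative to the drug. Troglitazone and rosiglitazone are thiazolidinediones, agonists of the nuclear receptor PPAR gamma. The title places the study in troglitazone liver injury. BSO blocks the synthesis of glutathione, the main thiol antioxidant of hepatocytes. No group received BSO alone. With 1 pooled array per group there is no replicate, so no difference was tested. In whole liver, fewer cells of a type and less RNA per cell cannot be told apart.

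Cells die by the mitochondrial route when BAX and BAK, the pore formers, perforate the outer mitochondrial membrane and release cytochrome c. The guardians BCL-XL (gene Bcl2l1) and MCL1 hold the pore formers in check, and hepatocytes depend on both of them. The BH3-only proteins sense damage and either neutralise guardians or activate the pore formers: BIM (Bcl2l11), PUMA (Bbc3), NOXA (Pmaip1), BMF, BIK and BID. BID also carries the signal of death receptors to the mitochondrion once caspase 8 has cut it. Many of these proteins are regulated after translation, which an mRNA array does not see.

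Levels rest on 60-base probes, and 5 genes had more than 1 probe with signal well above background. The opening 30 bases of 7 probes are shown. Against Vehicle, Bcl2l1 probes gave one answer with TGZ and with BSO+TGZ, and those of Bcl2l11 and Bmf did not. Coordinates are mm9 as the array files give them. No letter is capitalised, because no stretch of a probe is singled out.
Bcl2l1, chr2:152606404-152606463, minus strand: atagtttgtgtgaaggtgaaagtgcagttc
Bcl2l1, chr2:152606400-152606446, minus strand: gagaggggtgtgtagggaggagagcctgtc
Bcl2l1, chr2:152655185-152655244, minus strand: attggtgagtcggattgcaagttggatggc
Bcl2l11, chr2:127988051-127988110, plus strand: aacagcactgatctctgtatagtccccatc
Bcl2l11, chr2:127957112-127957171, plus strand: ttgtttactgtttggaagtcgttttactcg
Bmf, chr2:118354496-118354555, minus strand: catgtgtaaatatcctctcatccatcaagt
Bmf, chr2:118358312-118358371, minus strand: tggtggcaggtcttcctcttccttcaaaac
The first and second Bcl2l1 probes overlap by their stated coordinates but share no 12-base run on either strand. The files' position for at least 1 of them is therefore not borne out by its letters. The second's stated coordinates span 47 bases, too few for a 60-base probe, whereas the first's span 60. Exon and UTR annotation of mm9 was not used here, so probes are placed by coordinate alone.

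Promoters are shown for Bcl2l11 and Bbc3, BH3-only genes known as FOXO targets that lay on opposite sides of Vehicle with TGZ. RefSeq promoter windows (GRCm38.p6) matched 8 of the 10 members, in 15 windows of 250 bases before a gene start, with no window for Bik and Pmaip1. Capitals mark the FOXO motif TGTTTAC or its other strand GTAAACA.
Bcl2l11, chr2:128125788-128126037, plus strand: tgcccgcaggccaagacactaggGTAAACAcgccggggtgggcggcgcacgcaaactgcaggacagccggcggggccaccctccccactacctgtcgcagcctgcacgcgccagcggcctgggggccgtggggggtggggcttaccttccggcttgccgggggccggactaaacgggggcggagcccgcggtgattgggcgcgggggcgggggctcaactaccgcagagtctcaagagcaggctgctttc
Bbc3, chr7:16310011-16310260, plus strand: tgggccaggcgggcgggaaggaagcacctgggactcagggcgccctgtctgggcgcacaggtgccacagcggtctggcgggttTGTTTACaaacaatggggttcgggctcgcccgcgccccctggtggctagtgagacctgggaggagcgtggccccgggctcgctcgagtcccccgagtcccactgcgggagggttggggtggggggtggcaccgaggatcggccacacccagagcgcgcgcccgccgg
The match began 227 bases before the Bcl2l11 start and 167 bases before this Bbc3 start. The FOXO motif was in 3.17% of all 32851 windows and in 2 of the 15 member windows. On both strands, the AP-1 motif TGANTCA (6.75% of all windows), the CRE motif TGACGTCA (1.55%, letters that do not contain the AP-1 motif) and the STAT motif TTCNNNGAA (7.02%) matched no member window. The C/EBP motif TTGCNNAAT (2.11%) matched 1 Bmf window, and the E-box CACGTG (6.02%) matched 1 window each of Bax and Bbc3. The NF-kappaB pattern, GGG and CC with any 5 bases between them, was in 45.8% of all windows and in 11 of the 15. A match describes the letters and shows no binding.

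Signal is given as scaled signal, the background-subtracted brightness divided by the array's 75th percentile, so 1 is the level of the 75th percentile. A level is compared only within a probe. Fold differences come with a 95% interval built from the error that Feature Extraction assigns to each spot, which leaves out differences between animals and pools. Counts are of genes past 2-fold in either direction. The 10 probes that stand for the genes, the brightest of each gene, were well above background on all 5 arrays, and no member spot was saturated or an outlier. All 10 hepatocyte markers, among them Alb and Apoa1, were well above background on every array. The summed scaled signal of 10 Kupffer cell and macrophage markers was 64.1 with TGZ, 82.2 with BSO+TGZ, 74.2 with RGZ, 69.5 with BSO+RGZ and 70.6 with Vehicle. In each comparison with Vehicle, 1 of these markers was at least 2-fold higher and 0 lower. Cd68 was 2.90-fold that of Vehicle with TGZ and 2.73-fold with BSO+TGZ. The median log2 difference of the macrophage markers from Vehicle was -0.30 with TGZ and 0.24 with BSO+TGZ. After Cd68, the farthest with TGZ were Vsig4, at 0.562-fold (0.424 to 0.746), and Adgre1, at 0.680-fold (0.515 to 0.898). Marco was 3.42-fold with RGZ and 3.59-fold with BSO+RGZ.

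With TGZ, 3 members were at least 2-fold higher than with Vehicle (Bcl2l1, Bcl2l11 and Mcl1) and 3 at least 2-fold lower (Bik, Bmf and Bbc3), leaving 4 between. Of all 21314 genes with a value, 10% were that much higher and 9.51% that much lower. BSO+TGZ gave 4 higher, with Pmaip1 added, and 2 lower, Bbc3 and Bmf, where 8.28% and 5.93% of all genes were past 2-fold. RGZ gave none higher and 2 lower, Bbc3 and Bmf, against 1.63% and 1.67% of all genes. BSO+RGZ gave 1 higher, Bid, and the same 2 lower, against 3.03% and 3.8%. The median log2 difference of the members from Vehicle was 0.26 with TGZ, beside 0.01 over all genes. It was 0.25 with BSO+TGZ (all genes -0.03), 0.06 with RGZ (-0.03) and 0.20 with BSO+RGZ (-0.05). With spike-in scaling the TGZ median of the members was -0.19. Spike-in scaling moved the median of all genes by -0.44 with TGZ and by -0.19 with BSO+TGZ. It put 1209 genes higher and 4248 lower with TGZ, in place of 2139 and 2028, and 1393 and 1962 with BSO+TGZ, in place of 1774 and 1271. With RGZ it gave 452 higher and 259 lower, in place of 348 and 356. With BSO+RGZ it gave 901 and 577, and median scaling 843 and 621, in place of 642 and 806. All comparisons with Vehicle share 1 Vehicle array.

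**Figure D1:**
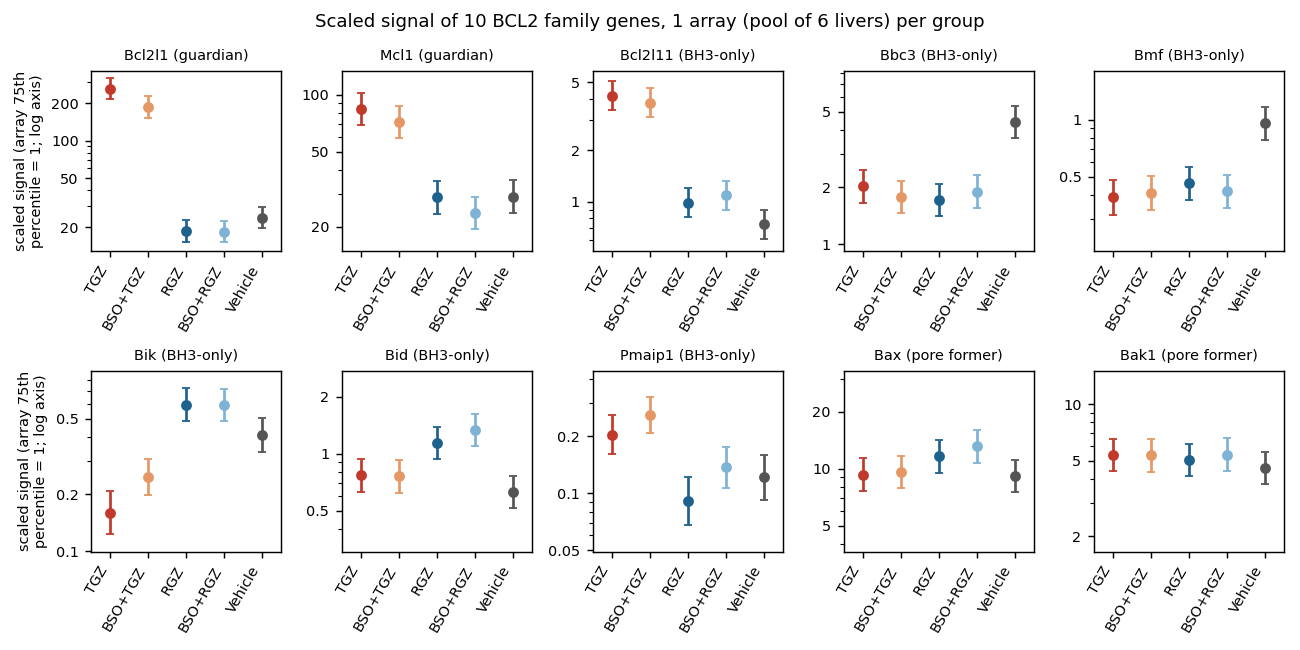
Scaled signal of the 10 genes (vertical log axes, array 75th percentile at 1) in each group, 1 array per group, with 95% bars of spot measurement error. Bcl2l1, Mcl1 and Bcl2l11 stand high in the TGZ and BSO+TGZ arrays, Bbc3 and Bmf are lower in all 4 treated arrays than in Vehicle, and Bik is low with TGZ and high with RGZ.

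Among the guardians, Bcl2l1 had a scaled signal of 263 with TGZ, 187 with BSO+TGZ, 18.7 with RGZ, 18.4 with BSO+RGZ and 23.9 with Vehicle. The TGZ and BSO+TGZ arrays stood far above the other 3, which lay close together. The level was 11.0-fold that of Vehicle with TGZ (interval 8.34 to 14.5) and 7.84-fold with BSO+TGZ (5.94 to 10.3). With RGZ it was 0.784-fold (0.594 to 1.03) and with BSO+RGZ 0.770-fold (0.583 to 1.02), so both intervals held 1. Against Vehicle all 5 Bcl2l1 probes were high with TGZ and BSO+TGZ, between 10.2-fold and 12.6-fold with TGZ and between 6.15-fold and 7.92-fold with BSO+TGZ. With RGZ the probes ran between 0.593-fold and 0.997-fold and with BSO+RGZ between 0.650-fold and 0.770-fold. One probe excluded 1 with RGZ, at 0.593-fold (0.430 to 0.818), and 3 probes excluded it with BSO+RGZ. Erythroid cells also rely on BCL-XL, and the summed scaled signal of the 6 erythroid markers was 5.99 with TGZ, 6.99 with BSO+TGZ, 3.59 with RGZ, 3.21 with BSO+RGZ and 5.97 with Vehicle. Epb42 of that list was not well above background on any array, and Ahsp not with RGZ or BSO+RGZ. Of the 4 erythroid markers with a value, 2 were at least 2-fold higher with TGZ, 3 with BSO+TGZ and none with RGZ or BSO+RGZ. With RGZ 1 was at least 2-fold lower, Slc4a1 at 0.408-fold (0.275 to 0.605). Alas2 made up most of the sum on every array, and was 0.864-fold with TGZ (0.655 to 1.14) and 0.600-fold with RGZ. The part of the erythroid cells in the Bcl2l1 result was not tested.

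Mcl1, a short-lived guardian that is lost within hours when transcription stops, had a scaled signal of 84.3 with TGZ, 71.6 with BSO+TGZ, 28.6 with RGZ, 23.6 with BSO+RGZ and 29.0 with Vehicle. Again the TGZ and BSO+TGZ arrays were high and the other 3 lay together. The level was 2.91-fold that of Vehicle with TGZ (2.21 to 3.84) and 2.47-fold with BSO+TGZ (1.87 to 3.26). It was 0.988-fold with RGZ (0.749 to 1.30) and 0.817-fold with BSO+RGZ (0.619 to 1.08). The second Mcl1 probe gave 2.98-fold with TGZ and 2.34-fold with BSO+TGZ. Neutrophils depend on MCL1. Of 10 neutrophil markers, 7 were past 2-fold higher and 0 lower with TGZ, and likewise with BSO+TGZ. With RGZ 3 of 8 with a value were, and with BSO+RGZ 4 of 9. The marker S100a8 was 18.6-fold with TGZ, 20.2-fold with BSO+TGZ, 3.28-fold with RGZ and 4.45-fold with BSO+RGZ relative to Vehicle. Ly6g went the other way, short of 2-fold, at 0.615-fold with TGZ (0.464 to 0.816) and 0.734-fold with BSO+TGZ (0.554 to 0.971). Mmp9, among the 7, had an interval that held 1 with TGZ (0.329 to 17.9) and with BSO+TGZ (0.283 to 15.5). The summed scaled signal of those markers was 256 with TGZ, 257 with BSO+TGZ, 120 with RGZ, 126 with BSO+RGZ and 110 with Vehicle. Csf3r, between 93.9 and 115 on every array, made up most of the RGZ, BSO+RGZ and Vehicle sums. Ngp was not well above background with RGZ or Vehicle, Mmp9 not with RGZ, BSO+RGZ or Vehicle, and Cxcr2 not with Vehicle. Their part in the Mcl1 result was not tested.

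Of the other guardian genes listed, Bcl2, Bcl2l2 and Bcl2a1d had values, Bcl2l10 was not well above background on any array, and Bcl2a1a and Bcl2a1b were not measured here. Bcl2, the founding member, had a scaled signal of 0.381 with TGZ, 0.288 with BSO+TGZ, 0.269 with RGZ, 0.225 with BSO+RGZ and 0.329 with Vehicle. Bcl2l2, which encodes BCL-W, ran only between 1.68 and 2.03 over the 5 arrays. Bcl2a1d, of the A1 guardians found mainly in blood cells, was 2.88-fold with TGZ, 3.35-fold with BSO+TGZ, 1.67-fold with RGZ and 1.502-fold with BSO+RGZ relative to Vehicle. The neutrophil sums above were also highest with TGZ and BSO+TGZ, and their part was not tested.

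Among the BH3-only genes, Bcl2l11 had a scaled signal of 4.19 with TGZ, 3.81 with BSO+TGZ, 0.988 with RGZ, 1.09 with BSO+RGZ and 0.737 with Vehicle. The order was TGZ and BSO+TGZ first, within error of each other, then BSO+RGZ and RGZ, also within error, and Vehicle last. The level was 5.68-fold that of Vehicle with TGZ (4.30 to 7.51), 5.17-fold with BSO+TGZ (3.91 to 6.84), 1.34-fold with RGZ (1.01 to 1.77) and 1.48-fold with BSO+RGZ (1.12 to 1.956). Its probes did not give one size. The bright probe nearest the gene's far end carried these values. The probe at 127957112, also well above background on all arrays, was 1.61-fold with TGZ (1.195 to 2.17), 1.53-fold with BSO+TGZ (1.14 to 2.07), 1.003-fold with RGZ (0.742 to 1.36) and 1.57-fold with BSO+RGZ (1.17 to 2.11). For that probe BSO+TGZ and BSO+RGZ were within error of each other, with a ratio of BSO+TGZ to BSO+RGZ of 0.978 (0.732 to 1.305), and BSO+RGZ was 1.56-fold RGZ (1.17 to 2.10). Another, which spans 11096 bases of genome and so crosses an intron, was not well above background with Vehicle. With Vehicle raised to its array's lowest well-measured signal, the ratio was 2.90 with TGZ (0.490 to 17.1) and 2.25 with BSO+TGZ (0.379 to 13.3), and both intervals held 1. The fourth, also crossing an intron by its 682-base span and dim with Vehicle, had a ratio of 1.90 with TGZ (0.885 to 4.07), which held 1, and of 2.43 with BSO+TGZ (1.17 to 5.05), by the same floor. Averaged over its probes, Bcl2l11 was at 1.41 on the log2 scale with TGZ, beside 2.51 for the bright probe.

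Bbc3, a direct p53 target in many cells, had a scaled signal of 2.02 with TGZ, 1.77 with BSO+TGZ, 1.72 with RGZ, 1.90 with BSO+RGZ and 4.41 with Vehicle. Vehicle stood alone at the top, and the 4 treated arrays did not differ beyond measurement error from their neighbours in order. The level was 2.18-fold lower with TGZ (1.65 to 2.88), 2.50-fold lower with BSO+TGZ (1.89 to 3.30), 2.57-fold lower with RGZ (1.95 to 3.39) and 2.33-fold lower with BSO+RGZ (1.76 to 3.07). Over all alternatives of scaling and background the 4 differences stayed past 2-fold, the smallest being -1.02 on the log2 scale with TGZ under normexp. Bbc3 has 1 probe, so no second probe bears on it.

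Bmf, whose protein is released from the cytoskeleton on loss of anchorage, showed the same order of Vehicle above the rest. Its scaled signal was 0.388 with TGZ, 0.411 with BSO+TGZ, 0.462 with RGZ, 0.418 with BSO+RGZ and 0.955 with Vehicle. The level was 2.46-fold lower with TGZ (1.84 to 3.28), 2.32-fold lower with BSO+TGZ (1.75 to 3.09), 2.07-fold lower with RGZ (1.56 to 2.74) and 2.28-fold lower with BSO+RGZ (1.72 to 3.03). The second Bmf probe differed: it was 0.745-fold with TGZ, 0.871-fold with BSO+TGZ, 0.557-fold with RGZ and 0.464-fold with BSO+RGZ relative to Vehicle. The call past 2-fold was therefore shared by both probes with BSO+RGZ alone. Averaged over both probes, Bmf was at -0.86 on the log2 scale with TGZ, -0.71 with BSO+TGZ and -0.95 with RGZ, short of 2-fold. With spike-in scaling it was at -0.95 with RGZ. With normexp, a background correction that adds an offset, all 4 Bmf differences lay between -0.78 and -0.72 on the log2 scale.

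Bik, an endoplasmic reticulum BH3-only protein, lay on opposite sides of Vehicle with the 2 drugs. Its scaled signal was 0.159 with TGZ, 0.248 with BSO+TGZ, 0.596 with RGZ, 0.592 with BSO+RGZ and 0.411 with Vehicle. RGZ and BSO+RGZ were within error of each other, and each later step down, to Vehicle, BSO+TGZ and TGZ, exceeded it. The level was 2.58-fold lower than Vehicle with TGZ (1.85 to 3.59) and 1.66-fold lower with BSO+TGZ (1.23 to 2.24). It was 1.45-fold higher with RGZ (1.09 to 1.93) and 1.44-fold higher with BSO+RGZ (1.08 to 1.91). This is a dim gene, and normexp background correction left -0.47 on the log2 scale with TGZ and 0.31 with RGZ.

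Bid had a scaled signal of 0.769 with TGZ, 0.761 with BSO+TGZ, 1.14 with RGZ, 1.33 with BSO+RGZ and 0.628 with Vehicle. Both arrays with RGZ were the high ones, and TGZ, BSO+TGZ and Vehicle followed within error of each other. The level was 2.12-fold that of Vehicle with BSO+RGZ (1.602 to 2.81), 1.82-fold with RGZ (1.38 to 2.41), 1.21-fold with BSO+TGZ (0.914 to 1.605) and 1.22-fold with TGZ (0.924 to 1.62). With spike-in scaling Bid was at -0.16 on the log2 scale with TGZ, and with normexp it was at 0.82 with BSO+RGZ. A second Bid probe was not well above background on any array.

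Pmaip1, a BH3-only gene that binds MCL1 and answers to p53 and to the integrated stress response, was dim throughout. Its scaled signal was 0.204 with TGZ, 0.258 with BSO+TGZ, 0.0911 with RGZ, 0.137 with BSO+RGZ and 0.121 with Vehicle. BSO+TGZ and TGZ were the high pair, within error of each other. The level was 2.13-fold that of Vehicle with BSO+TGZ (1.501 to 3.01) and 1.68-fold with TGZ (1.17 to 2.41), while RGZ at 0.751-fold (0.503 to 1.12) and BSO+RGZ at 1.13-fold (0.779 to 1.64) held 1 in their intervals. The BSO+TGZ call was not kept with normexp, at 0.44 on the log2 scale, or with spike-in scaling, at 0.90.

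**Figure D2:**
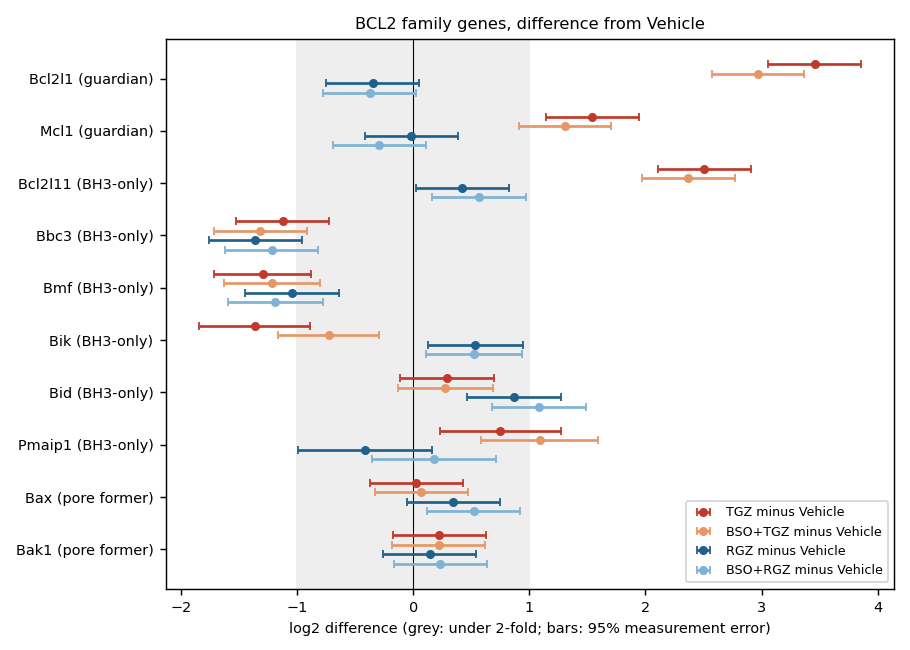
Log2 difference of each gene from Vehicle (horizontal axis) in the 4 treated groups, 1 array each, with 95% bars of spot measurement error; the grey band is under 2-fold. Bcl2l1 lies at 3.46 with TGZ and at -0.35 with RGZ, whereas Bbc3 and Bmf lie left of -1 in all 4 groups.

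The pore formers differed little between groups. Bax had a scaled signal of 9.32 with TGZ, 9.61 with BSO+TGZ, 11.6 with RGZ, 13.1 with BSO+RGZ and 9.16 with Vehicle. Each neighbour in that order was within error of the next, and against Vehicle its interval excluded 1 with BSO+RGZ, at 1.43-fold (1.09 to 1.89). The second Bax probe, whose 156-base span crosses an intron, gave 1.34-fold with RGZ (1.01 to 1.77) and 1.53-fold with BSO+RGZ (1.16 to 2.02), and both intervals excluded 1. Bak1 had a scaled signal of 5.37 with TGZ, 5.35 with BSO+TGZ, 5.07 with RGZ, 5.404 with BSO+RGZ and 4.60 with Vehicle. No Bak1 difference exceeded measurement error, the largest being 1.17-fold with BSO+RGZ (0.890 to 1.55). With spike-in scaling Bax and Bak1 lay below Vehicle with TGZ, at -0.42 and -0.22 on the log2 scale.

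**Figure D3:**
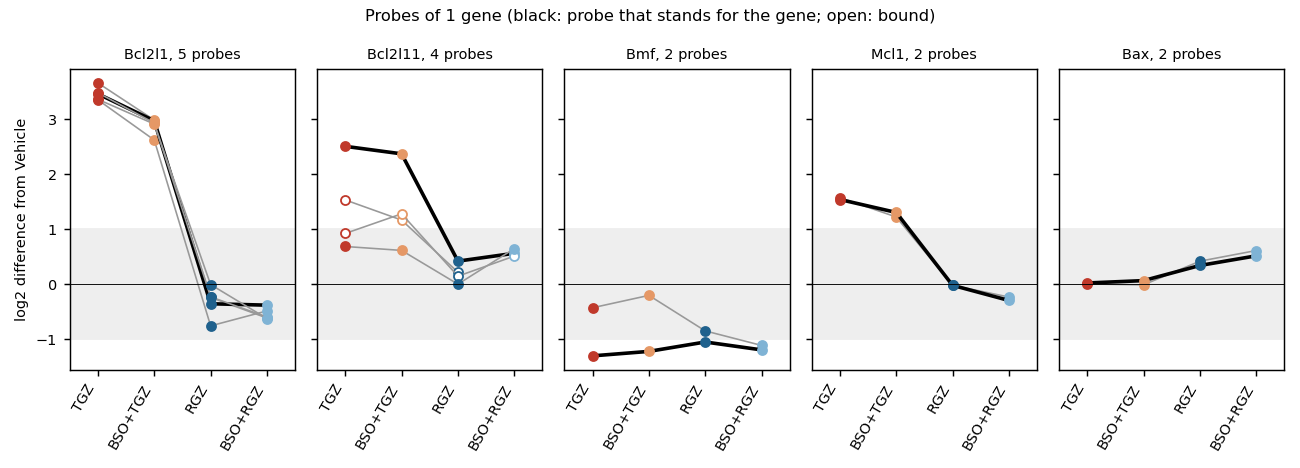
Log2 difference from Vehicle of every measured probe of 5 genes in the 4 treated groups, 1 array each; black lines join the probe that stands for the gene and open points are bounds. The 5 Bcl2l1 probes fall together at 3.35 to 3.66 with TGZ, while Bcl2l11 probes spread from 0.69 to 2.51 and the 2 Bmf probes part with TGZ.

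Troglitazone and rosiglitazone share the thiazolidinedione ring and differ in the group at the other end of the molecule, which in troglitazone is the ring system of vitamin E. Both were given at 300 mg/kg for 6 hr, so they can be set side by side, with and without BSO. The match is in mg/kg and time only and does not show equal exposure or effect. With 1 array each, the differences have measurement intervals and no p-value. Without BSO, 4 members were at least 2-fold higher with TGZ than with RGZ and 1 lower, where 9.23% and 8.4% of 21512 genes were. With spike-in scaling 972 of those genes were higher and 4550 lower. Bcl2l1 was 14.0-fold higher with TGZ than with RGZ (10.6 to 18.5), Bcl2l11 4.24-fold (3.21 to 5.60), Mcl1 2.95-fold (2.23 to 3.89) and Pmaip1 2.24-fold (1.54 to 3.27). The Bcl2l11 value is that of its bright probe. Its other probes gave 1.61-fold (1.196 to 2.16), 2.48-fold (1.59 to 3.89) and 1.71-fold (0.978 to 2.996), and the last interval held 1. Bik was 3.74-fold lower with TGZ than with RGZ (2.69 to 5.19). With normexp Bik was at -0.78 and Pmaip1 at 0.59 on the log2 scale, and with spike-in scaling Pmaip1 was at 0.62. Bid was 1.49-fold lower (1.12 to 1.97), and at -1.11 on the log2 scale with spike-in scaling. For Bbc3 the ratio of TGZ to RGZ was 1.18 (0.890 to 1.55), for Bmf 0.840 (0.628 to 1.12), for Bax 0.802 (0.608 to 1.06) and for Bak1 1.06 (0.803 to 1.40). The second Bmf probe had a ratio of 1.34 (0.985 to 1.82) and the second Bax probe 0.751 (0.569 to 0.992). The intervals of the 4 genes' main probes held 1, which does not show that the drugs acted alike on these genes.

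With BSO present in both arms, 3 members were at least 2-fold higher with BSO+TGZ than with BSO+RGZ and 1 lower, beside 8.31% and 5.26% of 21360 genes. With spike-in scaling 1071 of those were higher and 2396 lower, and with median scaling 1370 and 1654. Bcl2l1 was 10.2-fold higher (7.72 to 13.4), Bcl2l11 3.497-fold (2.65 to 4.62) and Mcl1 3.03-fold (2.30 to 3.995), and Bik was 2.39-fold lower (1.77 to 3.21). Pmaip1 was 1.88-fold higher (1.35 to 2.63), and Bid 1.75-fold lower (1.32 to 2.32). On the log2 scale, Bik was at -0.67 with normexp, Bcl2l11 at 0.95 when its probes were averaged, and Bid at -1.12 with spike-in scaling. Bax was 1.37-fold lower (1.04 to 1.80). For Bbc3 the ratio was 0.932 (0.706 to 1.23), for Bmf 0.981 (0.735 to 1.31) and for Bak1 0.989 (0.750 to 1.31). The second Bmf probe differed from the first here too, at 1.88-fold higher with BSO+TGZ (1.38 to 2.56). For the Bcl2l11 probe at 127957112 the ratio was 0.978 (0.732 to 1.305).

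**Figure D4:**
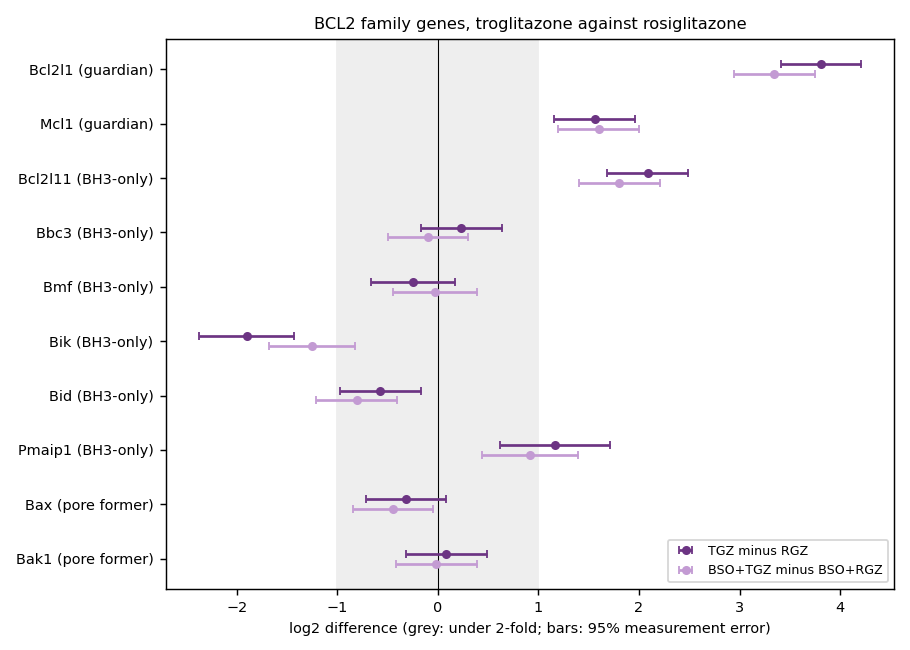
Log2 difference of each gene between troglitazone and rosiglitazone (horizontal axis), without BSO and with BSO in both arms, 1 array per group, with 95% bars of spot measurement error. Bcl2l1 lies at 3.81 and 3.35, and Bik at -1.90 and -1.26.

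Adding BSO to either drug put no member past 2-fold. Of all genes, 1.56% were that much higher and 0.494% lower with BSO+TGZ than with TGZ, and 0.517% higher and 0.71% lower with BSO+RGZ than with RGZ. For BSO+TGZ against TGZ, spike-in scaling gave 672 higher and 42 lower and median scaling 257 and 144, in place of 326 and 103. For BSO+RGZ against RGZ, median scaling gave 154 and 101, in place of 110 and 151. Bcl2l1 was 1.40-fold lower with BSO+TGZ than with TGZ alone (1.06 to 1.85). Bik was 1.55-fold higher with BSO+TGZ than with TGZ (1.11 to 2.19). The other 8 intervals of that comparison held 1. Between BSO+RGZ and RGZ, 9 members held 1 by the probes that stand for the genes. Only Pmaip1 lay beyond its interval there, at 1.504-fold higher (1.02 to 2.21). Other probes differed. The Bcl2l1 probe listed at 152606400 was 0.652-fold (0.476 to 0.894), and the 5 Bcl2l1 probes ran between 0.652-fold and 1.21-fold. The Bcl2l11 probe at 127957112 was 1.56-fold (1.17 to 2.10).

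Around the family, the medians of the cell death lists lay at unequal distances from Vehicle. Array-wide, the share past 2-fold with TGZ was 10% upward and 9.51% downward, and with RGZ 1.63% and 1.67%. Against the TGZ shares, 1 gene either way in a list of 11 or 15 does not stand out. Of 14 other BCL2 family genes on the array, 11 had a value, and with TGZ 1 was at least 2-fold higher and 1 lower (median log2 difference -0.01). The lower one, Bcl2l12, a BCL2-like gene, was 2.60-fold lower with TGZ and 2.18-fold lower with BSO+TGZ. Of 15 genes of the apoptosome, the executioner caspases and their inhibitors, none was higher and 1 lower with TGZ (median -0.17), and none was past 2-fold with RGZ (median -0.02). That 1 was Casp9, the caspase the apoptosome activates, with a scaled signal of 2.78 with TGZ, 3.08 with BSO+TGZ, 4.14 with RGZ, 3.18 with BSO+RGZ and 6.17 with Vehicle. Casp9 was 2.22-fold lower with TGZ, 2.003-fold with BSO+TGZ, 1.49-fold with RGZ and 1.94-fold with BSO+RGZ. With BSO+RGZ the gene past 2-fold was Birc5, survivin, at 2.11-fold lower.

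The death receptor route, which reaches the mitochondrion through Bid, had 11 genes with a value, 4 of them at least 2-fold higher and 2 lower with TGZ (median 0.38). The TNF receptor gene Tnfrsf1a had a scaled signal of 56.2 with TGZ, 51.7 with BSO+TGZ, 34.2 with RGZ, 44.0 with BSO+RGZ and 17.95 with Vehicle. It was thus 3.13-fold, 2.88-fold, 1.90-fold and 2.45-fold that of Vehicle, highest by value in the 2 TGZ arrays. The ratio of BSO+TGZ to BSO+RGZ was 1.17, and its interval (0.889 to 1.55) held 1. The others past 2-fold higher with TGZ, named after their values were seen, were Ripk1, Casp8 and Ripk3. The adaptor genes Tradd and Fadd were 2.73-fold and 2.46-fold lower with TGZ, and 1.04-fold and 1.08-fold lower with RGZ. Tnfrsf10b, the mouse TRAIL death receptor, was 1.94-fold higher with RGZ (1.38 to 2.73) and 2.56-fold higher with BSO+RGZ (1.83 to 3.59). With TGZ it was 0.878-fold, and the interval (0.583 to 1.32) held 1. None of the 11 was past 2-fold with RGZ (median 0.58).

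Of 15 transcription factors described as controlling BCL2 family genes, 9 were past 2-fold higher and 0 lower with TGZ (median log2 difference 1.254), and 8 higher and 0 lower with BSO+TGZ (1.02). RGZ put 3 higher and 0 lower (0.40). BSO+RGZ put 2 higher and 1 lower (0.32). The 3 farthest from Vehicle with TGZ were Atf3, Jun and Myc. Atf3, a stress-induced transcription factor, had a scaled signal of 10.7 with TGZ, 6.51 with BSO+TGZ, 0.159 with RGZ, 0.151 with BSO+RGZ and 0.0872 with Vehicle. It was 122-fold higher with TGZ and 1.83-fold higher with RGZ. Both ratios rest on a dim Vehicle signal, near that array's lowest well-measured signal of 0.0559, so their size is uncertain. The AP-1 subunit gene Jun was 11.6-fold higher with TGZ and 2.42-fold higher with RGZ. Myc was 11.1-fold higher with TGZ and 3.43-fold higher with RGZ. Trp53, named after its values were seen, ran between 1.14 and 1.37 scaled signal over the 5 arrays. The FOXO genes, named after their values were seen because of the promoter motif above, parted: Foxo1 was 2.39-fold higher with TGZ and 0.982-fold with RGZ, and Foxo3 was 0.768-fold and 0.728-fold. Of 17 p53 targets outside the family, 7 were higher and none lower with TGZ (median 0.58), and 1 was higher with RGZ (median 0.56). Btg2, an antiproliferative gene, was 83.5-fold higher with TGZ and 1.65-fold higher with RGZ, and Trp53inp1 was 15.3-fold and 0.970-fold. Cdkn1a, the cell cycle inhibitor p21, had a scaled signal of 43.9 with TGZ, 34.1 with BSO+TGZ, 1.75 with RGZ, 3.97 with BSO+RGZ and 0.531 with Vehicle. On all 4 treated arrays Cdkn1a was above Vehicle and Bbc3, a p53 target of the family, below it. Of 11 genes for proteins that turn over MCL1 or tether BIM or BMF, none was higher and 2 were lower with TGZ (median -0.08), and none was past 2-fold with RGZ. Those 2 were the dynein light chain genes Dynll1 and Dynll2, whose proteins hold BIM and BMF on the cytoskeleton, at 2.27-fold and 2.07-fold lower with TGZ. The array-wide share that much lower with TGZ was 9.51%, and 2 genes of 11 are too few to set this list apart from it.

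**Figure D5:**
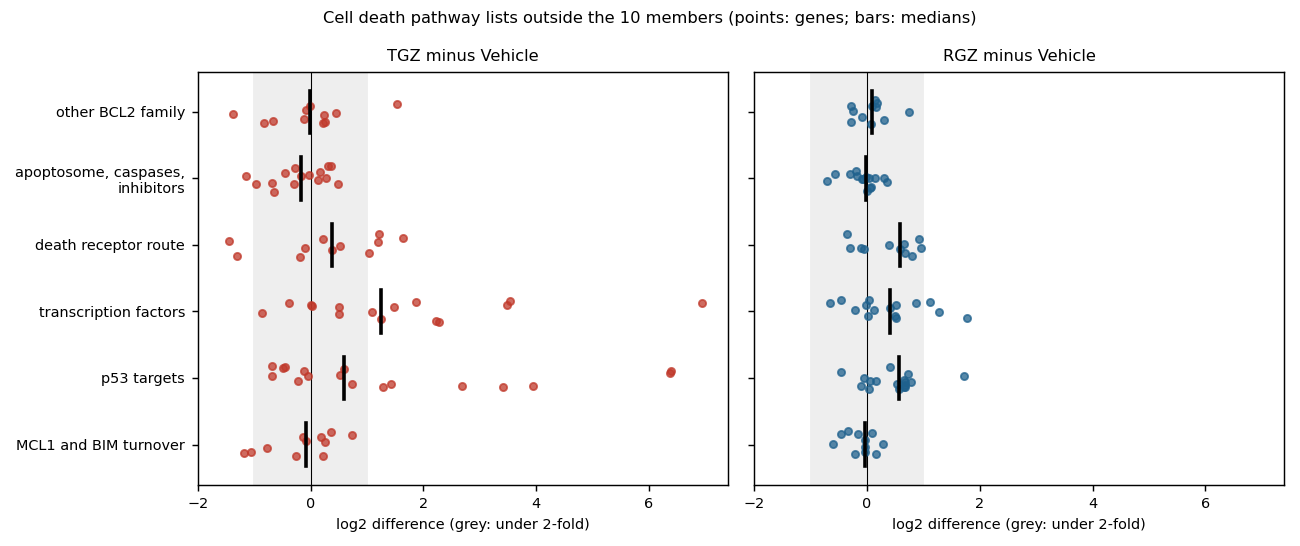
Log2 difference from Vehicle of the genes of 6 cell death lists, for TGZ (left) and RGZ (right), 1 array per group; each point is a gene and bars are list medians. The transcription factor median is 1.254 with TGZ and 0.40 with RGZ, and the apoptosome list lies near 0 in both.

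Genes whose 4 differences from Vehicle lay closest to a member's were found by Euclidean distance on the log2 scale among 13901 other genes that were well above background on all 5 arrays and whose name is a RefSeq symbol. For Bcl2l1 they were Map3k8 (distance 0.37), Jmjd1c (0.38) and Irs2 (0.39). Map3k8 was 11.7-fold with TGZ, 10.03-fold with BSO+TGZ, 0.785-fold with RGZ and 0.791-fold with BSO+RGZ relative to Vehicle. For Mcl1 they were Rbbp6, Zfp113 and S100a4, for Bcl2l11 Arl15, 2410006H16Rik and Heatr1, and for Bik Spic, Tbkbp1 and Nr1h4, the bile acid receptor gene. Nr1h4 was 2.78-fold lower with TGZ and 1.86-fold lower with BSO+TGZ, beside 1.38-fold with RGZ and 1.35-fold with BSO+RGZ. For Bbc3 they were Dock8, Rarb and H2-T24, for Bmf Rarb, Pip5kl1 and Acly, for Bid Clint1, Slc5a6 and Golga3, and for Pmaip1 Cdk5r1, Ampd3 and Chmp4b. With 4 differences from 1 shared Vehicle array per gene, these distances describe likeness on these arrays only.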

How the data were processed

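Each group is 1 array of RNA pooled over 6 livers. The deposited files hold a processed intensity for every spot. Per the file headers, Agilent's software (Feature Extraction, version 12.0.3.1) had subtracted background and removed spatial trends, with surrogate values near background. The deposited value table holds log2 values that equal log2 processed signal plus 1 constant per array, within 0.01 for at least 99.7% of probes well above background. The column medians were 4.02 (TGZ), 4.08 (BSO+TGZ), 4.01 (RGZ), 3.92 (BSO+RGZ) and 4.03 (Vehicle). So it is scaled and not centred per gene.

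Spots of a probe were averaged without outliers, and the log2 of each array's 75th percentile was subtracted. The percentile was 141 (TGZ), 170 (BSO+TGZ), 208 (RGZ), 191 (BSO+RGZ) and 184 (Vehicle). Between 51.9% and 55.2% of probes were well above background. The brightest probe by mean stands for a gene. A dim array's value was raised to that array's lowest well-measured signal, giving a bound. Intervals combine the software's errors of both spots. The number of arrays limits precision. The difference and 2-fold calls were checked on simulated data. Alternatives were median and spike-in scaling, normexp (limma 3.58.1, offset 50), the deposited table, the mean over probes, 2 dim-probe filters and a 1.5-fold threshold. The members and gene lists were chosen with earlier results of these data known. The rule for names was every member, up to 3 genes farthest from 0 per list and comparison, and the 3 nearest profiles per member past 2-fold against Vehicle. Bcl2, Bcl2l2, Trp53, the FOXO genes, Ripk1, Casp8 with TGZ and Ripk3 fall outside it and were named after their values were seen. The names behind the drug abbreviations come from the title and general knowledge. Of the marker lists, those of hepatocytes, macrophages, neutrophils and erythroid cells are given. Some genes of these lists are not reported here by name.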

Additional observations from a re-analysis of the deposited data

Results flagged for a closer look

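Bik is singled out because its difference from Vehicle had opposite signs with the 2 drugs, each beyond its measurement interval. On the log2 scale it was -1.37 with TGZ and 0.53 with RGZ, a gap of -1.90. With BSO present it was -0.73 with BSO+TGZ and 0.52 with BSO+RGZ, a gap of -1.26. The gap was not tested, since each group is 1 array, and both pairs share the Vehicle array.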

How the results depend on the processing

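Of 560 single-gene values recomputed under 7 alternatives, 525 stayed within their measurement interval, 35 moved beyond it and none that was past 2-fold changed sign. The 35 came from spike-in scaling (17), normexp (11) and the mean over probes (7). Many of the 525 could not move. Both dim-probe filters leave probes that are well above background on every array unchanged. The deposited table holds nearly the same signal plus a constant per array. Genes with 1 measured probe keep their value in the mean over probes. With spike-in scaling, the members' median log2 difference was -0.19 for TGZ and 0.0584 for BSO+TGZ against Vehicle, 0.25 for BSO+TGZ against TGZ, -0.38 for TGZ against RGZ and -0.34 for BSO+TGZ against BSO+RGZ; that last median was 0.21 with the mean over probes. The count past 2-fold with RGZ was 1 under spike-in scaling, normexp and the mean over probes, where Bmf was not called. It was 1 with BSO+RGZ under normexp, where Bmf and Bid were not called, and 3 for TGZ against RGZ under normexp, where Bik and Pmaip1 were not called. A 1.5-fold threshold counted 1 member for BSO+TGZ against TGZ and 1 for BSO+RGZ against RGZ. The Bcl2l11 difference between BSO+TGZ and BSO+RGZ was 0.95 with the mean over probes. Bid, by contrast, passed 2-fold in both drug pairs with spike-in scaling, at -1.11 and -1.12. Normexp adds an offset, so dim genes such as Bik, Bmf and Pmaip1 give smaller folds there by construction. The calls for Bcl2l1, Mcl1 and Bbc3 against Vehicle were the same under all 7. No paired analysis was possible because each group has 1 array. With 1 pool per group, variation between animals is not measured, and dim genes are limited by signal over background.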
